A study of Homo sapiens with 19 samples.

Results

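Superenhancers of MDA-MB-231 breast cancer cells carrying an OCT-2 transgene were compared, base by base, with those of the same cells carrying GFP. The members are the 518 regions of the deposited 231Pa_Luc+OCT-2 list and the 337 regions of the deposited 231Pa_Luc+GFP list, 855 regions in all, from 4 of the 19 samples of the series. MDA-MB-231 (called 231Pa here) is an established triple-negative breast cancer line. Both populations are polyclonal and stably carry luciferase; one carries POU2F2, the gene for OCT-2, as a second transgene, and the control carries GFP. H3K27ac, the acetylation of lysine on histone H3 that marks active enhancers, was precipitated in 2 replicates of each population, and the authors merged the replicates into 1 list per population. Binding of OCT-2 was taken from the deposited list of 5736 placed peaks in the 231Pa_Luc+OCT-2 cells. The series holds no anti-OCT-2 sample of the GFP cells, so OCT-2 binding in them is unknown. The lists hold positions only, so sequencing depth and signal height are unknown, no test over samples was possible, and every interval below covers counting error only. The labels do not say whether the replicates were separate cultures or how strongly the transgene was expressed.

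A superenhancer is a cluster of closely spaced active enhancers joined into 1 long region, often at genes that define a cell's identity. The region is called by joining neighbouring acetylated stretches and ranking the result by signal, so its edges and its presence both depend on a call. OCT-2 is a POU-domain transcription factor best known from B lymphocytes; it binds the octamer ATGCAAAT, read as ATTTGCAT on the other strand, at enhancers and promoters.

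Some sequences in the bases that differed are shown first, as examples. In 3 promoters inside regions present in the OCT-2 list alone, an OCT-2 peak covered an octamer in the bases before the gene start. They are the promoters of MIR3142HG, a host gene of microRNAs (chr5:160468001-160468250, plus strand), of PRRC2A, which encodes an RNA-binding protein (chr6:31620465-31620714, plus strand), and of TOP1, which encodes DNA topoisomerase I (chr20:41028572-41028821, plus strand). Each is given from the RefSeq promoter table of GRCh38.p14 as the 250 bases before the start, 5′ to 3′, with the octamer in capitals.
MIR3142HG promoter: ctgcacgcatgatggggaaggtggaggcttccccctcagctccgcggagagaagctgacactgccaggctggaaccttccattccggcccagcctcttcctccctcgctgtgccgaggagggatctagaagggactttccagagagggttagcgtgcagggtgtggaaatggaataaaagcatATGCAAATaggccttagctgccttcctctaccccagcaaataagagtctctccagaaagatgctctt
PRRC2A promoter: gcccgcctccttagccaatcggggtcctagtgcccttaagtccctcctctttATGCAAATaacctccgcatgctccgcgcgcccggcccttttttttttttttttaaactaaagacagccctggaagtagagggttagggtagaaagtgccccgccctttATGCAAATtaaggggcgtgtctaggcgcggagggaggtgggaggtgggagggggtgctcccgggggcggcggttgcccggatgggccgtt
TOP1 promoter: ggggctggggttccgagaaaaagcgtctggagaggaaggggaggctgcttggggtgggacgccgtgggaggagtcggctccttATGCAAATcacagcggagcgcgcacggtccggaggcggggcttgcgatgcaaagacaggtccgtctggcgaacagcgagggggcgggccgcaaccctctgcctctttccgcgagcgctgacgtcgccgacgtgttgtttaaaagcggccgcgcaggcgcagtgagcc
The microRNAs below lay in bases that were added or removed, and their mature forms from RefSeq are shown with the seed (bases 2 to 8), which pairs with target messages, in capitals. The let-7i hairpin lay in bases added at the edge of a shared superenhancer, the miR-205 hairpin in a region of the OCT-2 list alone, and the miR-29a and miR-29b-1 hairpins in bases removed at an edge. miR-29a and miR-29b share 1 seed.
let-7i-5p: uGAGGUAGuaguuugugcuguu
miR-205-5p: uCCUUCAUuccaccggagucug
miR-29a-3p: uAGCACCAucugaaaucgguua
miR-29b-3p: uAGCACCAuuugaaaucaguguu

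The OCT-2 list was larger because it held more whole regions, while the regions that both lists shared were on balance shorter in it. The OCT-2 list covered 50.42 Mb and the GFP list 40.26 Mb. Of these, 32.48 Mb lay in both lists, which is 80.68% of the GFP bases and 64.42% of the OCT-2 bases. The OCT-2 list added 17.94 Mb (gained bases), and 7.779 Mb of the GFP list were missing from it (lost bases). Of the gained bases, 88.97% (15.96 Mb) lay in 204 whole regions that met no GFP region, 10.67% (1.914 Mb) lay beyond the outer edges of shared regions, and 0.06402 Mb filled gaps between fused regions. The lost bases had another make-up. Only 40.26% of them (3.131 Mb) lay in the 29 whole regions of the GFP list alone, and 56.49% (4.394 Mb) lay at outer edges of shared regions. Whole regions thus gained 5.096 times the bases they lost, whereas edges lost 2.295 times the bases they gained. The balance of all bases depended on the size of the lists: with the OCT-2 list cut to its 337 widest regions, 13.58 Mb were gained and 11.9 Mb lost, of which edges gained 1.828 Mb and lost 3.198 Mb. The shared loci covered 37.13 Mb in the GFP list and 34.46 Mb in the OCT-2 list.

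**Figure D1:**
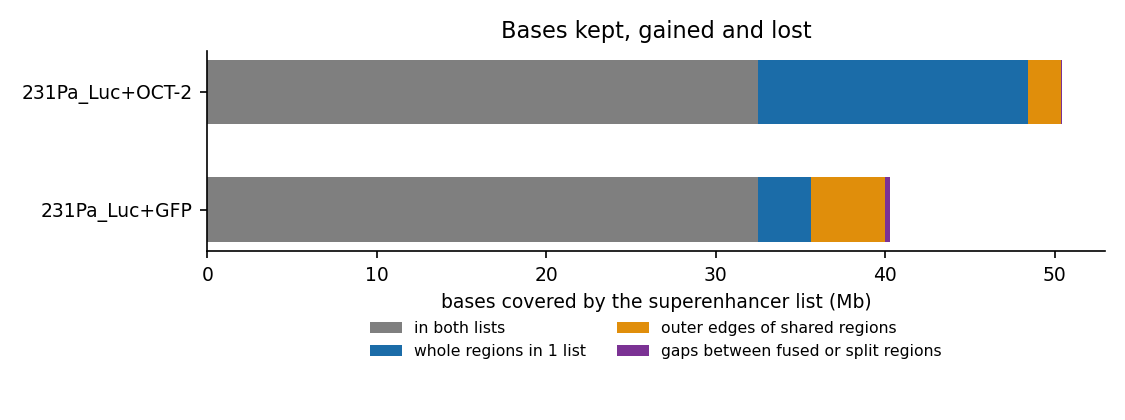
Bases covered by each superenhancer list in Mb, split into bases in both lists, whole regions of 1 list, outer edges of shared regions and gaps of fused or split regions; there is 1 merged list per population and therefore no error bar. The kept 32.48 Mb are the same bases in both bars, whole regions make up most of what the OCT-2 list adds, and edges make up most of what the GFP list has alone.

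The lists overlapped in 308 of 337 GFP regions (91.39%, exact 95% interval 87.9 to 94.2%) and in 314 of 518 OCT-2 regions (60.62%, 56.3 to 64.9%). An overlap of 1 bp made a region shared, and few regions lay near that threshold. The smallest overlap of a pair was 5.681 kb, at UBR4 (an E3 ubiquitin ligase), where an OCT-2 region of 5.681 kb lay within a GFP region of 78.33 kb, and the next smallest was 12.91 kb. On the other side, the closest of the 233 unshared regions, the one at PRRC2A in the OCT-2 list, lay 24.78 kb from its GFP neighbour. Region widths had a median of 105.2 kb (quartiles 74.4 and 148.0) in the GFP list and 84.89 kb (59.0 and 123.0) in the OCT-2 list. The regions of the OCT-2 list alone had a median of 72.97 kb, and those of the GFP list alone 110.2 kb.

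The region names may give a limit on how far the 2 replicates differed, which is the only replicate error in the files. Each name holds a centre, read here as the mean of the middles of the calls that were merged, which no file states. Where 2 calls were merged, its distance from the middle of the region then tells how much more the calls differed at one edge than at the other. This gives the least mismatch of the calls at that edge, if each replicate gave 1 call. In 0 regions of either list did the implied mismatch exceed the region's width, which the reading requires but which does not establish it. The calls differed by over 1 kb in 135 of 331 GFP regions of 2 calls (40.79%) and in 171 of 512 OCT-2 regions of 2 calls (33.4%). The medians were 0.558 kb in the GFP list and 0.321 kb in the OCT-2 list, and the largest mismatches 231 and 215 kb. An equal mismatch at both edges leaves no trace in the name, so these are lower limits.

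Most shared loci matched 1 region with 1 region: 297 one-to-one pairs, beside 7 splits and 2 fusions. Both edges stayed within 1 kb in 119 pairs (40.07%, exact interval 34.4 to 45.9%). In 118 pairs (39.73%, 34.1 to 45.5%) edges moved inward in the OCT-2 list, in 47 pairs (15.82%, 11.9 to 20.5%) outward, and in 13 pairs 1 edge moved each way. By edge, 380 of 594 were held, with a median shift of 0.128 kb. The 147 inward edges moved by a median of 15.04 kb (quartiles 3.81 and 39.5, largest 204), and the 67 outward edges by a median of 8.234 kb (quartiles 3.08 and 28.1, largest 174). The OCT-2 region was narrower by over 1 kb in 122 pairs and wider in 52, and the median difference, OCT-2 minus GFP, was -0.373 kb.

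By this reading, edges that moved were often edges on which the replicates differed. At inward edges, the GFP calls differed by over 1 kb at the same edge in 74 of 147 (50.34%, exact interval 42.0 to 58.7%), against 29 of 380 held edges (7.632%, 5.17 to 10.8%). At outward edges, the OCT-2 calls differed by over 1 kb in 37 of 67 (55.22%, 42.6 to 67.4%), against 41 of 380 held edges (10.79%, 7.85 to 14.4%). In 36 of the inward and 18 of the outward edges the mismatch equalled the shift within 5%, so that by this reading 1 replicate had the edge where the other population had it. At least 58.9% of the bases gained at edges and 49.6% of those lost at edges lay in 1 of the 2 calls, against 9.92% of the bases of whole gained regions and 6.57% of whole lost regions. Every region of either list merged 2 or 3 calls, so none rests on 1 call. The low shares in whole regions are therefore partly set by how the lists were made. A whole region of 1 list may also have had 1 call in the other population, which the lists cannot show. In the 121 pairs in which no mismatch over 1 kb was visible in either list, 41 edges moved inward and 11 outward, and 0.8565 Mb were lost against 0.2395 Mb gained. The excess of inward over outward edges was therefore also present where no call mismatch could be seen.

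**Figure D2:**
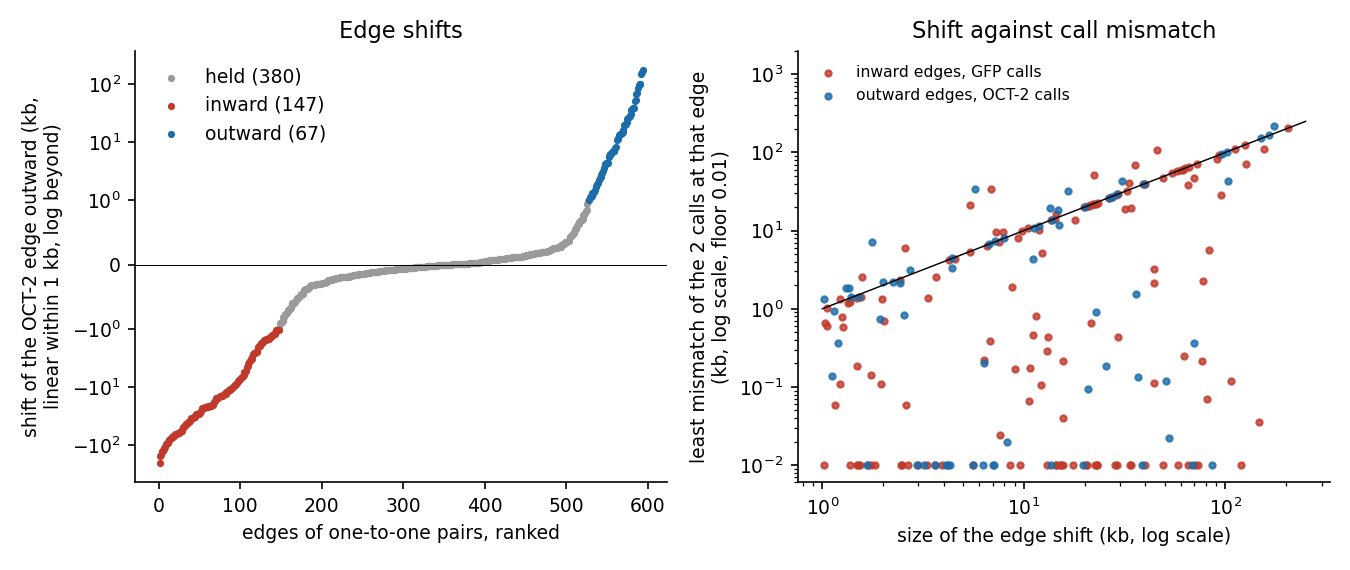
Left, the shift of each of the 594 edges of one-to-one pairs in kb, ranked, positive where the OCT-2 region reached further out (linear within 1 kb, log beyond). Right, the least mismatch of the 2 merged calls against the size of the shift for the 147 inward edges (GFP calls) and the 67 outward edges (OCT-2 calls), in kb on log axes with a line at equality; values under 0.01, regions of 3 calls included, are drawn at 0.01. Many points lie on the line.

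Much of the extension lay in few loci. Of 70 gained edge segments of 1 kb or more, the 10 longest held 56.17% of the bases gained at edges. Of 150 lost ones, the 10 longest held 29.23% of the bases lost there. The 10 are a larger part of 70 than of 150 segments, so these 2 shares do not compare like with like. The longest extension, at the locus of JUND (an AP-1 subunit) on chromosome 19, widened the region from 146.7 to 320.9 kb and took in ELL, a transcription elongation factor, and ISYNA1. The OCT-2 calls differed there by at least 215.2 kb. At ERRFI1, which encodes an inhibitor of the EGF receptor, 164.9 kb were added toward SLC45A1 and RERE (GFP 338.0 kb, OCT-2 471.1 kb), with a call mismatch of 164.9 kb. At AFF3 150.7 kb were added with a mismatch of 151.3 kb, and at CCN1, which encodes a matricellular protein and YAP target, 95.89 kb were added over DDAH1 with a mismatch of 95.02 kb. In these 4 loci the OCT-2 replicates differed by about as much as the bases added, or by more. The extension at PLAU, which encodes urokinase, added 102.0 kb over CAMK2G and its neighbours with a mismatch of 102.2 kb, and its other edge lost 32.47 kb against a GFP mismatch of 32.11 kb.

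Other extensions showed no such mismatch. At SYNJ2, which encodes a lipid phosphatase, the region grew from 49.69 to 119.4 kb with an OCT-2 mismatch of 0.362 kb at the moved edge. At ITGA2, the collagen receptor subunit, it grew from 55.8 to 125.2 kb, with a mismatch of 0.364 kb at the opposite edge. At VIM, which encodes the mesenchymal intermediate filament vimentin, it grew from 33.48 to 59.25 kb with a mismatch of 0.184 kb. At the keratin genes KRT7 and KRT81 it grew from 106.0 to 142.7 kb with a mismatch of 0.134 kb. In these 4 loci the added bases exceeded every call mismatch visible in either list. At MON2 and PPM1H, the locus of let-7i, 103.2 kb were added with a mismatch of 42.77 kb. At PHC2, a Polycomb subunit, 86.14 kb were added in a region merged from 3 calls, for which no mismatch can be read.

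Retractions reached further and were spread over more loci. At AHNAK and SLC3A2 the region shrank from 344.5 to 140.9 kb, and the GFP calls differed by at least 203.5 kb. At NUP160 and PTPRJ (a receptor phosphatase) 125.7 kb were lost against a mismatch of 125.6 kb, and at CEP85 and DHDDS 112.1 kb against 111.5 kb. These 3 losses, like the extensions above, equalled a difference between replicates. At RAB11FIP4 the loss was 170.3 kb against a mismatch of 110.3 kb, and at DEF6 and PPARD (a nuclear receptor) 127.1 kb against 71.27 kb. Near SLC44A3, a choline transporter-like gene, the region shrank from 223.7 to 76.13 kb with a GFP mismatch of 0.036 kb, and at SPSB1 from 326.5 to 222.2 kb with a mismatch of 0.118 kb. Near KRR1 109.7 kb were lost with a mismatch of 0.07 kb. In these last 3 loci the loss exceeded every mismatch visible in either list.

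Fusion and splitting were rare, at 9 of the 306 shared loci. The gaps concerned measured 24.93 to 41.33 kb. Both fusions joined a pair of GFP regions: at NRP1, which encodes the neuropilin-1 co-receptor, across 34.4 kb, and at DKK3 (a Wnt pathway modulator) and MICAL2 across 29.6 kb. The 7 splits lay at HIVEP3 (gaps of 25.2 and 29.2 kb), BCAR3 (29.3 kb), SMNDC1 (33.5 kb), PDHX and CD44 (35.2 kb), AFAP1 (24.9 kb), ADGRF5 (41.3 kb) and MUSK (34.6 kb). CD44 encodes the hyaluronan receptor, BCAR3 an adaptor in CAS signalling and AFAP1 an actin-bound adaptor.

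In 6 of these 9 loci the joined region could be read as spanned in 1 replicate alone. At MUSK the GFP calls differed by at least 133.7 kb, which put the inner call's edge 0.076 kb from the start of the second OCT-2 region. At DKK3 the OCT-2 calls differed by at least 54.02 kb, which put it 0.295 kb from the start of the second GFP region. At HIVEP3 the GFP mismatch of 231.2 kb placed both gaps in 1 call. At NRP1, AFAP1 and ADGRF5 the joined region held 3 calls, that is, at least 1 replicate had more than 1 call there. At BCAR3, SMNDC1 and PDHX both calls may span the gap. The gaps of the 2 fusions held 0 OCT-2 peaks, and the 8 gaps of the splits held 1, at ADGRF5.

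**Figure D3:**
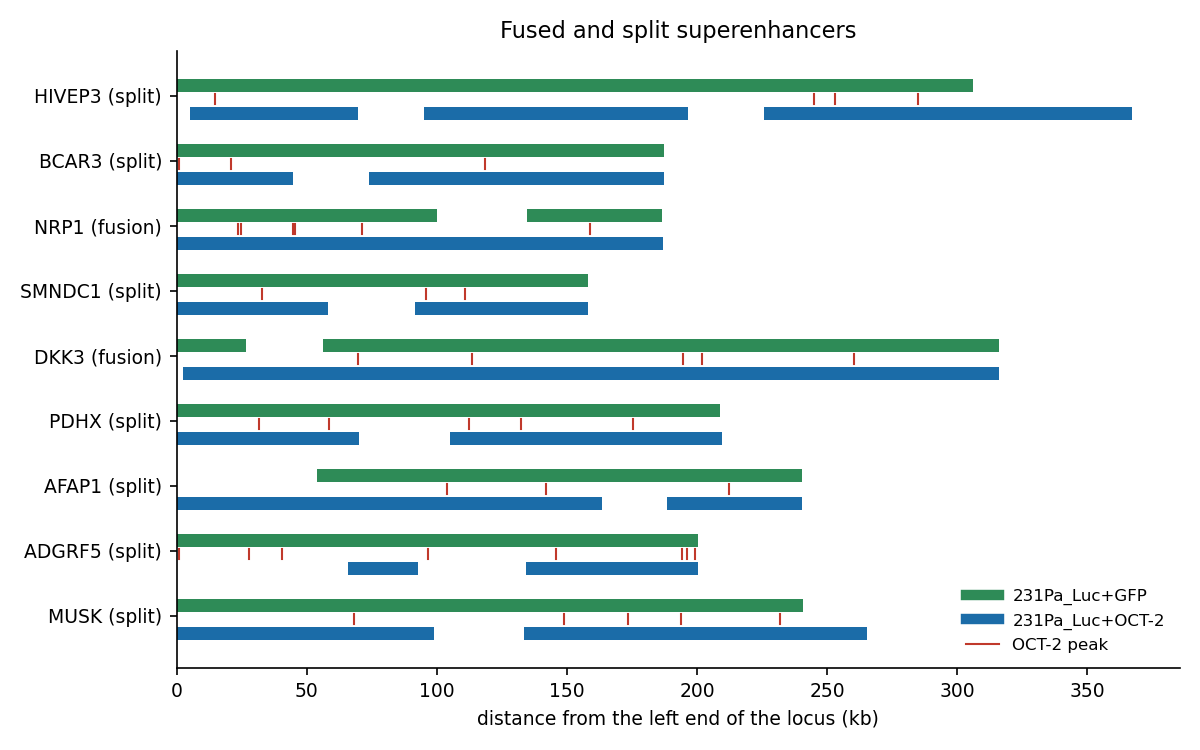
The 9 fused or split loci, named by their first gene: superenhancers of the GFP list (green, upper bar) and of the OCT-2 list (blue, lower bar) with OCT-2 peaks (red ticks), on 1 scale in kb from the left end of each locus. The gaps that separate fused or split regions hold 1 peak in all, at ADGRF5.

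The densities of OCT-2 peaks in whole gained and whole lost regions had overlapping counting intervals. Over all classes together, gained bases held more peaks per Mb than lost bases. Whole gained regions held 258 peaks, or 16.2 per Mb (exact Poisson interval 14.3 to 18.3), and 148 of 204 (72.5%, 65.9 to 78.5%) held at least 1. Whole lost regions held 41 peaks, or 13.1 per Mb (9.4 to 17.8), in 23 of 29 regions (79.3%, 60.3 to 92.0%). The kept bases held 624 peaks, or 19.2 per Mb (17.7 to 20.8). Bases gained at edges held 19 peaks, or 9.92 per Mb (5.98 to 15.5), and bases lost at edges 21, or 4.78 per Mb (2.96 to 7.31). The intervals of the 2 kinds of whole region overlap, and so do those of the 2 kinds of edge. Overlap does not show that 2 densities are equal, and the differences were not tested. The interval for bases gained at edges also overlaps those of both kinds of whole region, while that for bases lost at edges lies below them. Over all gained bases the density was 15.44 per Mb (13.7 to 17.4) and over all lost bases 8.099 per Mb (6.22 to 10.4), intervals that do not overlap. These 2 totals mix the classes in unlike shares. Whole regions made up 88.97% of the gained and 40.26% of the lost bases, and edges 10.67% and 56.49%. The totals therefore do not compare like with like. Of the peaks, 4.829% lay in gained bases. The peaks were called in the OCT-2 cells alone, so lost bases were measured in cells in which they are not called superenhancer.

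Of the 70 segments of at least 1 kb gained at an edge, 15 (21.4%) held a peak, with at most 3 in 1 segment, at PHC2. Of the 150 lost at an edge, 13 (8.67%) did. The gained segments with a peak had a median of 50.68 kb and those without one 6.373 kb, so the peaks lay mostly in the longer segments. Near the old edge itself peaks were rare. An edge lies where the joining of acetylated stretches ended, so few peaks just beyond it may follow from the call. This was not tested. In the first 10 kb beyond the GFP edge, the density was 1.49 per Mb (0.0378 to 8.32, 1 peak) at outward edges and 0.789 (0.163 to 2.31) at held edges, against 28.4 (17.1 to 44.3) and 19.7 (15.5 to 24.7) in the last 10 kb inside. Between 30 and 50 kb beyond the GFP edge it was 8.96 per Mb in each 10 kb bin at outward edges. In the same bins it was 2.89 and 4.47 at held edges, and 6.12 and 7.48 at inward edges. The bins count all 67 outward edges, and the upper quartile of their shift was 28.1 kb. Most of the added segments therefore ended before these bins. At inward edges, the last 10 kb inside the GFP region held 12.2 peaks per Mb (7.26 to 19.4).

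**Figure D4:**
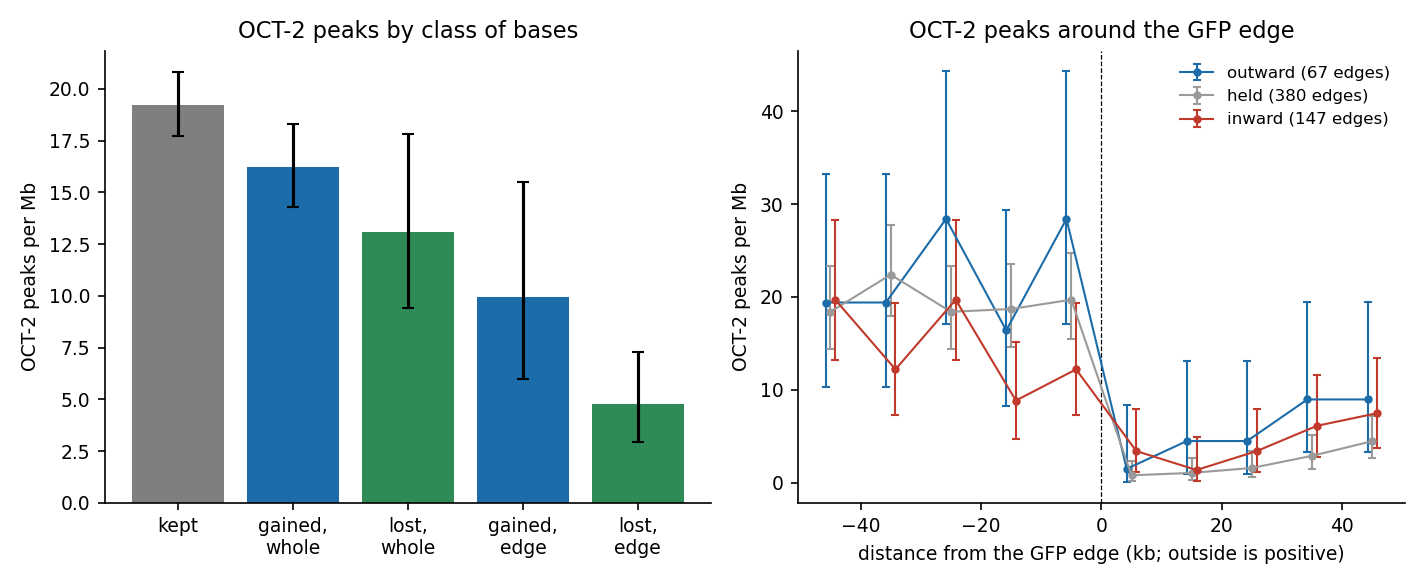
Left, OCT-2 peaks per Mb in kept bases, whole gained and lost regions and bases gained and lost at edges. Right, peaks per Mb in 10 kb bins by distance from the GFP edge (inside negative) for outward, held and inward edges; bars and whiskers are exact Poisson 95% intervals. Density falls from 28.4 to 1.49 per Mb across outward edges and from 19.7 to 0.789 across held edges. The place of the edge is itself set by the call.

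Of the 10 gained segments with the most peaks, 9 were whole regions. The region of 129.8 kb over YAP1 (a Hippo pathway coactivator), BIRC3 and BIRC2 (inhibitors of apoptosis) held 5 peaks, and so did the region of 100.1 kb over CCND3, which encodes cyclin D3, MED20 and BYSL. Regions at APPL2, RAB31, MAP4K3, PDGFC and PRRC2A held 4 each. The exception was the extension at PHC2, with 3, and further whole regions had as many, among them those at ARHGAP35 and MIR3142HG. The widest region of the OCT-2 list alone, 231.4 kb with CEBPB (a basic leucine zipper factor) as its nearest gene at 27.7 kb, held 1 peak. Other wide ones lay at ARHGAP35 (220.2 kb, 3 peaks), ANO1, a chloride channel (195.2 kb, 2 peaks), and TM4SF1 (179.2 kb, 1 peak). The fifth widest, on chromosome 10, lay 271 kb from its nearest gene, LOC107983989 (178.4 kb, 0 peaks). Those of the GFP list alone lay at DLG1 and BDH1 (226.3 kb, 0 peaks), ARNT2 (196.9 kb, 1 peak), CARD10 and LGALS1 (191.5 kb, 1 peak), RIPK4 (172.5 kb, 1 peak) and near ZNF703 (161.9 kb, 2 peaks).

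Promoters with a peak were counted in the same bases. Of 546 promoter windows (250 bases before to 50 after a start) that met gained bases, 25 (4.58%) met an OCT-2 peak, against 48 of 1090 (4.4%) in kept bases, 2 of 163 (1.23%) in lost bases and 1.41% of all 35116 windows. The share was 23 of 508 (4.53%) in whole gained regions and 2 of 38 (5.26%) in bases gained at edges or gaps, and 0 of 64 in whole lost regions and 2 of 99 (2.02%) in bases lost at edges or gaps. An octamer, sought on both strands, was present in 4 of the 25 (16%), in 9 of the 48 (18.8%) and in 15.7% of all windows with a peak. Regardless of peaks, it was present in 1.83% of the windows in gained bases and in 1.77% of all windows. In kept bases the share was 2.66% (29 of 1090) and in lost bases 1.23% (2 of 163). Promoter windows in gained bases were thus close to all promoter windows in octamers. The gained bases outside these windows were not searched for octamers. The MIR3142HG, PRRC2A and TOP1 promoters printed above are 3 of the 4. Their octamers begin at base 184, at bases 53 and 161, and at base 84 of the printed sequences. Among the windows with a peak but no octamer were those of WWTR1, BIRC2, BIRC3, MED20 and BYSL. At extended edges, 2 windows met a peak, at ELL and ZSWIM8, and at retracted edges 2, at DEF6 and PPARD. Some windows met the same peak, as those of MED20 and BYSL did, so the windows outnumber the separate peaks. A match shows only that the letters are present.

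Of 20037 protein-coding genes, 2.5% met gained bases, 3.4% kept bases and 1.36% lost bases. The bodies of 35 of the 261 genes in 16 lists of pathways and markers met gained bases, 21 of them in whole regions, where the share of all genes was 1.75%. Of the same 261 genes, 40 met kept bases and 7 met lost bases, so list genes were not particular to gained bases. These lists were drawn up with earlier results of these data known, so their counts are a description. The list of NF-kappaB and inflammatory genes had 7 of 22 members in whole gained regions. They were IL1A and IL1B, cytokine genes in 1 region of 103.7 kb with 1 peak; the chemokine genes CXCL2 (63.53 kb, 1 peak) and CXCL8 (40.67 kb, 0 peaks); TNF (42.35 kb, 0 peaks); NFKBIZ, a nuclear IkappaB (138.7 kb, 1 peak); and BIRC3. IRF1, LIF and NFKBIA of the same list lay in kept bases. No member of this list met an edge segment of 1 kb or more.

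The TGF-beta and BMP list had 5 of 23 members in whole gained regions. TGFBR2, the type II receptor, lay in a region of 116.6 kb with 2 peaks, ID1, a BMP target, in 98.91 kb with 2 peaks, and TGIF1, a co-repressor, in 21.0 kb with 1 peak. SKI (67.91 kb) and LTBP2 (56.99 kb) had 0 peaks, and SMAD3 lay in kept bases. In the YAP and TEAD list, the coactivator genes YAP1 and WWTR1 (105.2 kb, 1 peak) and CRIM1 (55.94 kb, 1 peak) were 3 of 15 in whole gained regions, and 6 met kept bases. Of the AP-1 list JUN alone (59.8 kb, 2 peaks) was in a whole gained region, and 5 of 12 met kept bases. The hypoxia list had 3 of 16 in whole gained regions, namely HIF1A, the oxygen-regulated factor (113.5 kb), HK2, a glycolytic enzyme (88.16 kb), and ADM (104.9 kb). CCND3 was 1 of 18 in the cell cycle and survival list, ITGA6 (55.11 kb) 1 of 18 in the basal list and ID1 1 of 25 in the metastasis list. The mesenchymal, receptor tyrosine kinase, POU, lymphocyte and luminal lists had 0.

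Edges moved within few list members. Bases gained at edges or gaps met 15 of the 261 list genes and 0.764% of all protein-coding genes, and bases lost there 5 list genes and 1.15% of all, many of them by less than the 1 kb within which an edge counts as held. Segments of 1 kb or more gained at edges or gaps met 0.339% of all protein-coding genes and 6 of the 261 list genes. These were VIM, KRT7 and KRT81, described above, EGFR, LAMB3 and COL13A1. At EGFR, the EGF receptor gene, the right edge lay 6.37 kb further out (GFP 219.8 kb, OCT-2 233.1 kb), with a mismatch of 0.2 kb there, and the left edge also lay further out, where the GFP calls differed by 80.45 kb. LAMB3 gained 1.76 kb against an OCT-2 mismatch of 7.238 kb, and COL13A1 1.53 kb against 1.42 kb, so both lay within or near the replicate difference. Segments lost at edges or gaps met 0.644% of all protein-coding genes and 3 list genes. ETS1, an oncogenic transcription factor gene, lost 22.6 kb (101.2 to 79.07 kb) with no mismatch visible at that edge, although the GFP calls differed by 46.91 kb at the other. RUNX2 lost 26.5 kb against a mismatch of 26.44 kb, and FOSL2 1.26 kb against 0.578 kb. Whole lost regions met 0.215% of all protein-coding genes and 2 of the list genes: ROR1, a receptor tyrosine kinase gene (157.9 kb, 4 peaks), and PECAM1, an endothelial adhesion gene (140.7 kb, 1 peak).

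At POU2F2 itself the lists hardly differed. The gene (chromosome 19, 42086110 to 42197936) was met by a GFP region of 58.84 kb and an OCT-2 region of 58.89 kb with 0 OCT-2 peaks, and the edges differed by 123 and 175 bp. A transgene inserted elsewhere would not appear in these lists, so they cannot check it. The labelled cell type was checked against its markers. Of 12 mesenchymal and basal markers of the line, 8 met both lists (VIM, AXL, CD44, ITGB1, MMP14, EGFR, LAMB3 and ITGB4). Of 15 markers of luminal, blood, stromal and neural cells, 0 met the OCT-2 list and 1, PECAM1, met the GFP list.

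**Figure D5:**
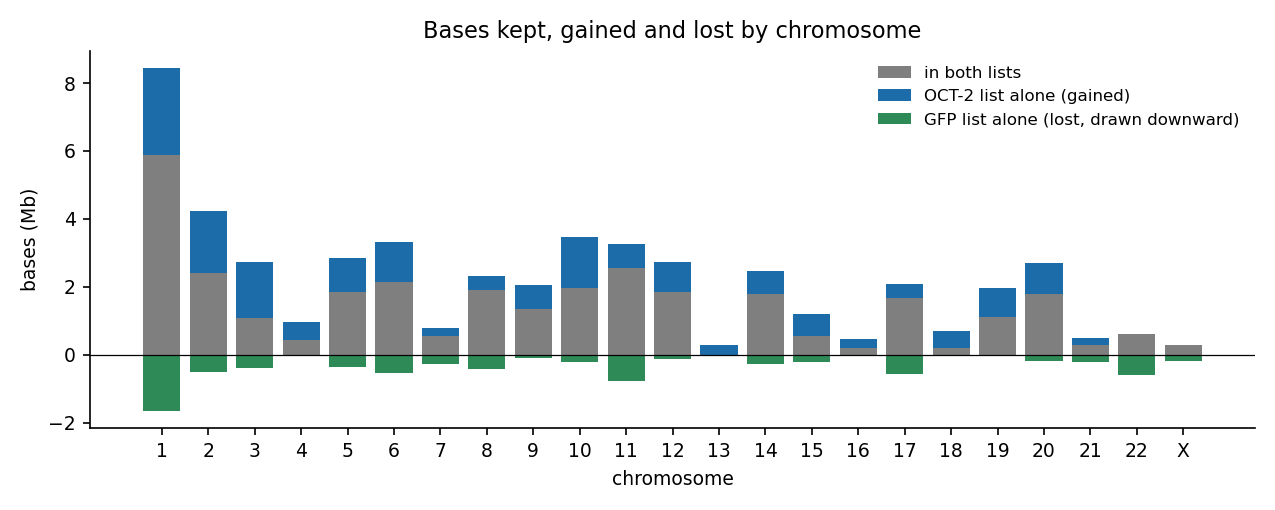
Bases in both lists, gained in the OCT-2 list and lost from the GFP list (drawn downward) in Mb, by chromosome. Gained bases can be seen on every chromosome drawn except 22 and X. On chromosome 22 the lists share 0.6164 Mb and 0.5979 Mb were lost, and on X 6.4e-05 Mb were gained.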

How the data were processed

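The authors deposited lists of positions (start and end of each merged region, no counts or scores) in hg38. Of tools, the notes on processing that the submitters gave list HOMER, bedtools, Bowtie and Bowtie2 2.2.2.6, with no settings. The deposited positions are in base pairs, with no normalization. The calling of superenhancers and peaks is not described there. Regions overlapping by 1 bp or more were linked, and linked groups were classed as one-to-one, fused or split; an edge shifted by over 1 kb counted as moved. A peak was assigned to bases by its midpoint and to a promoter window by any overlap. The 5 of 5741 peaks on unplaced contigs were left out. Intervals are exact binomial (Clopper-Pearson) or exact Poisson at 95%. Genes, promoters and microRNAs came from RefSeq tables of GRCh38.p14; all 261 list genes matched. The code was tested on simulated lists with known shifts. Named genes are those at the 10 loci with the most gained and lost bases, all fusions and splits, the 5 widest regions of each list alone, the 10 gained segments with most peaks, list members in moved bases, promoters with peaks, and POU2F2; a few genes the rule takes are not reported. The members and lists were chosen with earlier results of these data known. Alternatives were the overlap, edge tolerance, stitching of close regions, list size, gene assignment and, chosen after seeing the data, regions trimmed by the call mismatch. Python 3.11.15 with pandas 2.3.3 and scipy 1.17.1 was used.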

Additional observations from a re-analysis of the deposited data

How the results depend on the processing

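Of 65 values under alternative settings, 56 kept to within the limit of change set for them and 9 did not. Some of the 56 could not change, namely the values under stitching and the number of pairs under another edge tolerance. The limit was also wide. It took in bases lost at edges falling from 4.394 to 3.198 Mb with the cut OCT-2 list, and inward edges falling from 147 to 107 with a 5 kb tolerance. With the OCT-2 list cut to its 337 widest regions, 68.25% of GFP regions and 68.55% of OCT-2 regions were shared and the lost bases came to 11.9 Mb. With no edge tolerance, 236 edges counted as outward and 357 as inward, and with 5 kb, 43 as outward; inward edges stayed the more numerous. With regions trimmed by the least call mismatch, chosen after seeing the data, 1 fusion was left. With genes assigned by the middle of their body, 17 list members and 250 genes met gained bases, since fewer genes then qualify. Stitching of close regions changed no value, the smallest gap between regions being 24.88 kb in the OCT-2 list and 26.49 kb in the GFP list. No paired analysis was possible because each list merges its replicates, so the columns carry no replicate number; leaving out a replicate was not possible for the same reason. Depth is unknown, and a region missing from a list may still be acetylated below the call.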

Other observations

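The balance of gained and lost bases differed in value among chromosomes. On chromosome 22 the GFP list had 8 regions and the OCT-2 list 5, with 0 Mb gained and 49.2% of the GFP bases lost, and on the X chromosome 5 and 2 regions, with 0.0216% of the OCT-2 bases gained and 38.4% of the GFP bases lost. On chromosome 18 the counts were 2 and 7 with 72.8% of the OCT-2 bases gained, on chromosome 3 15 and 31 with 60.6%, and on chromosome 13 0 and 2. Most of these chromosomes hold few regions.

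Of 1562 microRNA hairpins in the RefSeq table, 27 lay in whole gained regions, 3 in bases gained at edges or gaps, 69 in kept bases, 8 in bases lost at edges or gaps and 4 in whole lost regions. The let-7i hairpin, of a family known as tumour suppressors, lay in the 103.0 kb segment at MON2 with 2 OCT-2 peaks and an OCT-2 call mismatch of at least 42.77 kb. The miR-205 hairpin, an epithelial microRNA, lay in a region of 82.35 kb of the OCT-2 list alone with 1 peak. The miR-29a and miR-29b-1 hairpins, known for targeting collagen messages, lay in a lost segment of 44.33 kb with 0 peaks, where the GFP calls differed by at least 2.15 kb. The miR-30c-2 hairpin lay in a gained segment of 7.974 kb against a mismatch of 7.946 kb.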
